A study of Mus musculus with 14 samples.

Results

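The Hox gene clusters are 4 runs of homeobox genes, and the CTCF and H3K27ac peaks in and around them are described here. Their members were chosen by position alone: every peak of the 8 CTCF lists and the 2 H3K27ac lists that overlapped a cluster, taken from the start of its first to the end of its last listed gene plus 100000 bp on both sides (mm10). The 38 listed genes comprise 10 of Hoxa, 10 of Hoxb, 9 of Hoxc and 9 of Hoxd. Merging overlapping CTCF peaks over the 8 lists gave 97 sites in these regions of 86652 in the genome: 22 at Hoxa, 42 at Hoxb, 19 at Hoxc and 14 at Hoxd. Of the 97, 53 lay between the first and last listed gene (called inside the clusters below) and 44 in the flanks.

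The study compared E14Tg2A mouse embryonic stem cells with unaltered CTCF (WT) and cells of the same line in which lysine 20 of CTCF was replaced by arginine by CRISPR editing (K20R). All cells were grown on feeder cells with LIF and 2 inhibitors that hold pluripotency (day 0), and embryoid bodies, aggregates made in hanging drops with serum and without LIF, were taken at day 4. CTCF was mapped by ChIP-seq in 2 libraries of each genotype and day, and H3K27ac, the acetylation found at promoters and enhancers in use, in 1 library per genotype at day 4. The labels do not say how many clones stand for a genotype or whether replicates were separate cultures, so p-values measure the spread between these libraries only, and a difference of genotype cannot be told apart from one of clone. The 8 CTCF lists held 41360 to 77657 peaks, and 49 to 77 of them lay in the Hox regions. The number of reads under the summit could be solved for 100% of these peaks from their deposited values, and its median was 28 to 63 reads per list, which sets the precision of single values. The libraries pool many cells, so fewer cells with a bound site and less binding per cell cannot be told apart.

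Hox genes encode homeodomain transcription factors that give segments of the body axis their identity. In each cluster all listed genes point the same way, and during development they are switched on in the order in which they lie, from the 3′ end (low numbers) to the 5′ end (high numbers). Genes of the same number in different clusters are paralogs. In pluripotent cells the clusters are held silent under Polycomb proteins, and CTCF bound between Hox genes is known as a boundary between active and silent parts of a cluster. CTCF binds a long asymmetric motif, and pairs of sites whose motifs point towards each other tend to anchor chromatin loops.

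The sequences below show the best match to the CTCF motif at the sites on which the results turn. The motif was a matrix of 19 bases learned from 1000 strong sites elsewhere in the genome. A match is a score within 100 bp of the summit that 5% of windows moved by 1000 bp passed. Capitals mark bases 4 to 15, the most conserved stretch, and the most frequent bases of the matrix are given first. The next 5 are the matches at 5 of the 6 sites within 500 bp of a Hox start site that were called in every list (the site at the start of Hoxd10 had none), all read on the strand of the Hox genes, from the GRCm38 reference sequence.
matrix: tggCCACCAGGGGGCgctg
Hoxa5 start, chr6:52204655-52204673: tctCCAGCGGGTGGCgctc
Hoxb5 start, chr11:96303242-96303260: tcgCCGGGAGGTGGCgcgc
Hoxc5 start, chr15:103013699-103013717: tcgGCACCAGGTGTCgctg
Hoxa10 start, chr6:52240537-52240555: ccgCCACGAGATGGCgcac
Hoxc10 start, chr15:102966569-102966587: cagCTGCTAGGTGGCgctg

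The following 3 sequences lie in coding exons of the paralogs Hoxd10, Hoxc10 and Hoxa10, read against the strand of the genes, and they show how far a sequence shared between clusters was bound in each.
Hoxd10 exon, chr2:74694225-74694243: tgaTCTCTAGGCGGCgctc
Hoxc10 exon, chr15:102970932-102970950: taaTCTCCAGGCGGCgctc
Hoxa10 exon: tgaTCTCTAGGCGCCgctc

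The last 4, each on the strand of its match, belong to the strongest sites inside Hoxb and Hoxd, the Hoxa7-Hoxa9 site and a Hoxb site that lies in a repeat. The first is nearest to Hoxb9 among the sites called in every list.
Hoxb13-Hoxb9 site nearest to Hoxb9, chr11:96261749-96261767: cgaCCTCTAGGCGGCgccc
Hoxd8-Hoxd4 site, chr2:74715918-74715936: tgtCCAGGAGGAGGCgctg
Hoxa7-Hoxa9 site, chr6:52221805-52221823: attCCAGGAGATGGCagtg
Hoxb13-Hoxb9 repeat site, chr11:96224003-96224021: aggCCAGAAGAGGGCgcca

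CTCF sites were dense inside all 4 clusters. There were 142 sites per Mb inside Hoxa, 109 inside Hoxb, 95 inside Hoxc and 92.9 inside Hoxd, beside 31.8 per Mb over the genome. For the sites called in all 8 lists these densities were 50.8, 63.2, 25.9 and 62.0 per Mb, beside 13.4 over the genome. Of the 97 sites, 46 were called in every list (47.4%, beside 42.1% of all sites), and these were 7 of 22 at Hoxa, 23 of 42 at Hoxb, 6 of 19 at Hoxc and 10 of 14 at Hoxd. A further 20 of the 97 were called in a single list. Strength is given as the percentile of a peak's fold enrichment within its own list, averaged over the lists. Its median at the sites called in every list was 77.3 inside the clusters, 57.2 in the flanks and 65.6 over the 36440 such sites of the genome.

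In the Hoxa cluster, 4 strong sites called in every list stood between Hoxa5 and Hoxa11. The site between Hoxa10 and Hoxa11 (chr6:52240064-52240790) lay in a UTR of Hoxa10 and had a mean percentile of 96.1. Next came the site between Hoxa6 and Hoxa7 (chr6:52211130-52212015) with 93.3, the site between Hoxa7 and Hoxa9 (chr6:52221396-52222043) with 91 and the site between Hoxa5 and Hoxa6 (chr6:52204290-52204833) with 86.0. The last 3 lay in introns of the annotated transcripts. A weaker site called in all 8 lists lay between Hoxa11 and Hoxa13 (62.3). The interval between Hoxa2 and Hoxa3 and the coding spans of Hoxa2, Hoxa3, Hoxa4, Hoxa6, Hoxa7, Hoxa9 and Hoxa11 held no site. The intervals Hoxa3-Hoxa4, Hoxa4-Hoxa5 and Hoxa9-Hoxa10 held 1 each, none of them called in all lists.

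The Hoxb cluster carries a long gap between Hoxb13 and Hoxb9, and 8 of the 19 sites inside the cluster lay in it, 6 of them called in every list. The strongest inside the cluster was the one nearest to Hoxb9 among those called in every list (chr11:96261333-96262135), in a noncoding exon of Gm53, with a mean percentile of 97.1. A site called in 2 lists lay nearer to Hoxb9. The site between Hoxb6 and Hoxb5 (chr11:96302804-96303410) and a site inside the gap (chr11:96234731-96235440) followed with 91.5 and 91.4. A flank site beyond Hoxb1, 73202 bp from its start (chr11:96438488-96439416), had 94.3. Here and below, distances of CTCF sites run from the start of the named gene, for Hoxc4 from the nearer of its 2 starts. Distances of H3K27ac peaks run from the edge of the gene, unless its start is named. The intervals Hoxb9-Hoxb8, Hoxb7-Hoxb6 and Hoxb5-Hoxb4 also held 1 site each that was called in all lists. None lay in Hoxb3-Hoxb2 or Hoxb2-Hoxb1, but 1 lay in a coding exon of Hoxb3 (chr11:96345752-96346341, 49.4). The flanks of Hoxb held 12 sites called in every list, 8 beyond Hoxb13 and 4 beyond Hoxb1, more than any other cluster.

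In the Hoxc cluster, 3 sites inside were called in every list, and they lay in the intervals Hoxc11-Hoxc10 (chr15:102966250-102967220, 95.6), Hoxc9-Hoxc8 (chr15:102987251-102987772, 75.3) and Hoxc6-Hoxc5 (chr15:103013364-103014052, 53.9). The other 8 sites inside Hoxc included 5 at or 3′ of Hoxc13 and in Hoxc4 that were called in 1 or 2 lists. Beyond Hoxc13 there was 1 site, called in 1 list, while 7 lay beyond Hoxc4. In the Hoxd cluster, sites called in every list ran from 5′ of Hoxd13 to the interval between Hoxd8 and Hoxd4 and stopped there. The Hoxd8-Hoxd4 site (chr2:74715609-74716379, in a noncoding exon of Hoxd3os1) had a mean percentile of 90.2, and 2 further sites, between Hoxd11 and Hoxd10 (chr2:74686176-74686862) and in the coding exon of Hoxd10 (chr2:74693907-74694394), had 79.3 and 77.3. No list called a site in Hoxd4-Hoxd3, in Hoxd3-Hoxd1 or in the 100000 bp beyond Hoxd1, whereas the same distance beyond Hoxd13 held 5 sites. The strongest of those 5 (chr2:74655090-74656268, 86.9) lay in a UTR of Evx2, the homeobox gene next to Hoxd13.

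**Figure D1:**
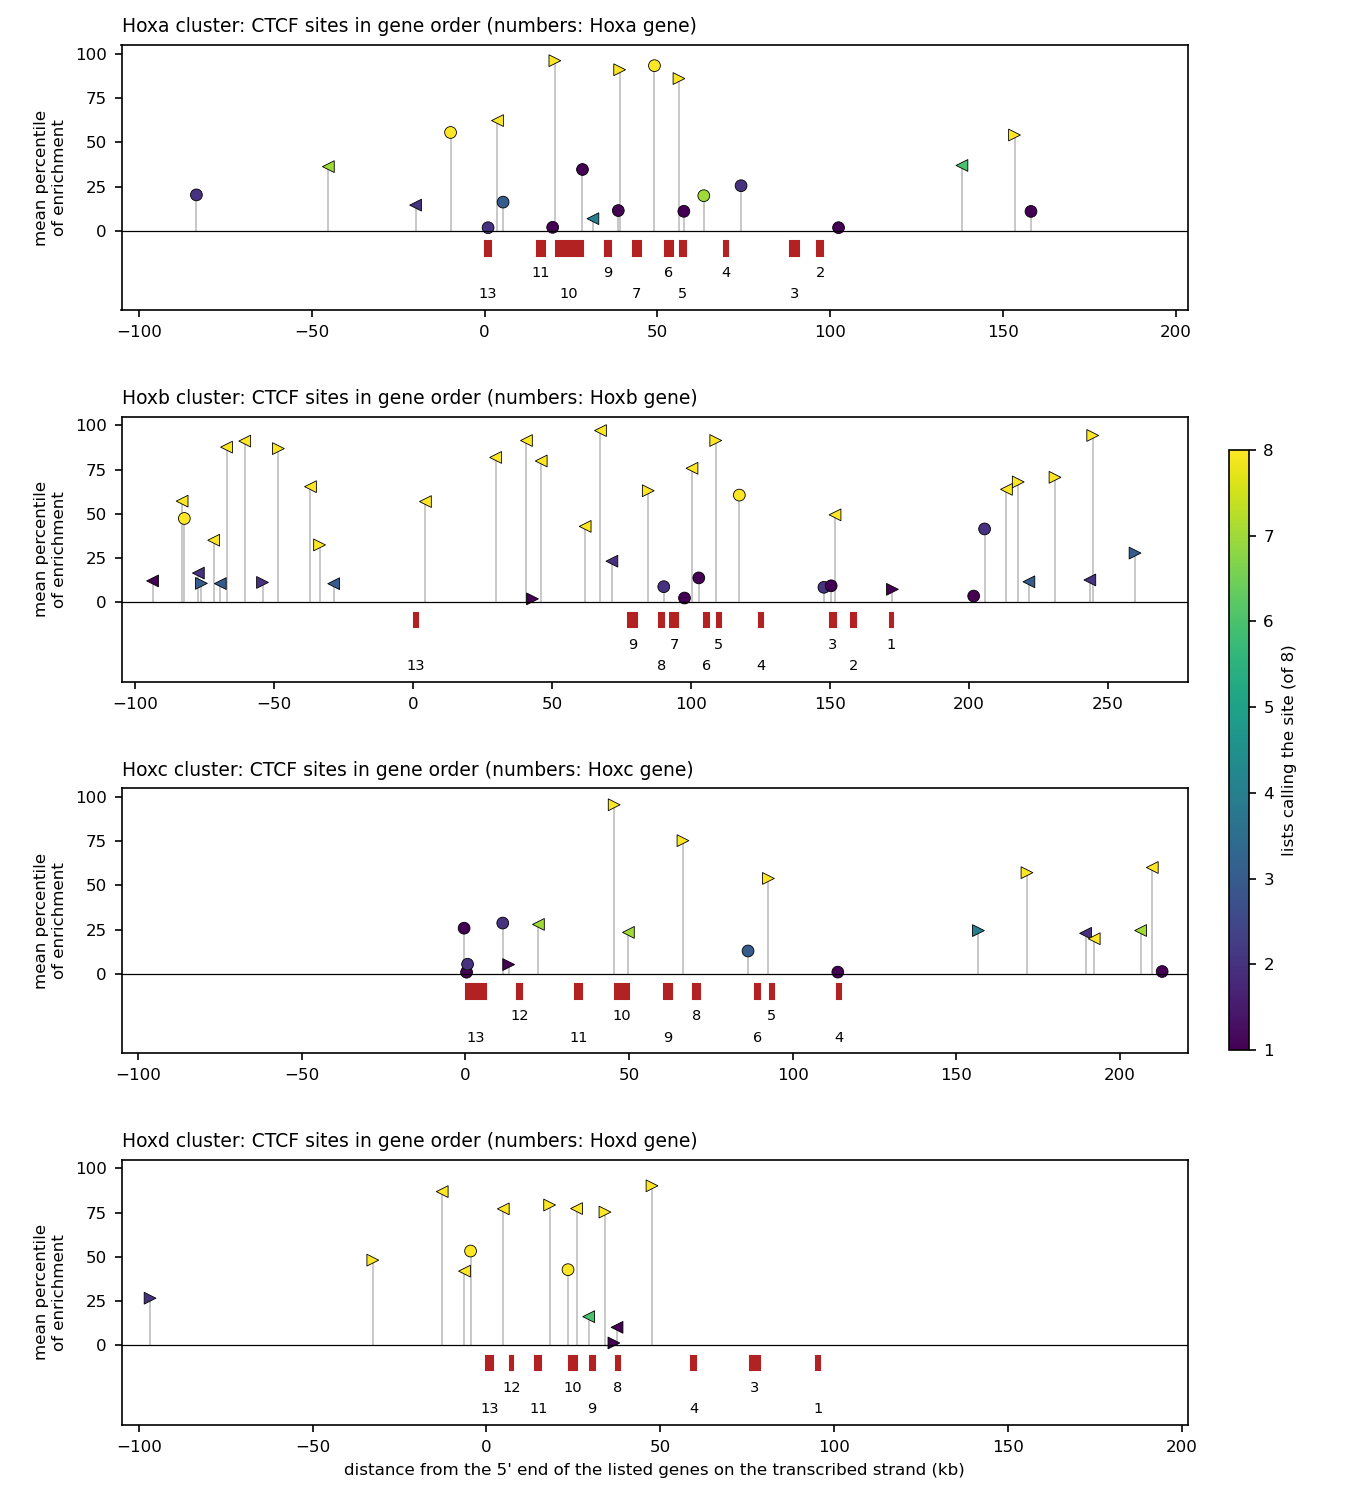
CTCF sites (stems) and coding spans of the listed genes (red boxes, numbered) in the 4 regions, plotted by distance in kb from the 5′ end of the cluster, with each site's mean percentile of fold enrichment on the y axis. Colour gives the number of the 8 lists that call the site, triangles the direction of its motif match relative to the Hox genes (right, same strand), and circles no match. The Hoxd sites end between Hoxd8 and Hoxd4. By their best match within 100 bp of the summit, the 6 sites called in every list in the Hoxb13-Hoxb9 gap all point against the genes. At the site with the match at chr11:96256164-96256182, the best match within 50 bp of the summit points with the genes.

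The sites called in every list that lay closest to Hox start sites belonged to 2 groups of paralogs. Within 500 bp of a listed start site there were 6 such sites, 3 at paralog group 5 (50 bp from the start of Hoxa5, 270 bp from Hoxb5 and 132 bp from Hoxc5) and 3 at group 10 (318 bp from Hoxa10, 211 bp from Hoxc10 and 148 bp from Hoxd10). The next site lay 1381 bp from a start, that of a Hoxa3 transcript, and this grouping was noticed after the distances were seen. At 5 of the 6 the motif matched on the strand of the genes, as printed above, and at the Hoxd10 start no match passed. The Hoxa5 and Hoxb5 matches shared 14 of 19 bases, Hoxa5 and Hoxc5 13, and Hoxb5 and Hoxc5 12. The matches at the Hoxa10 and Hoxc10 starts shared 12, so pairs within and between the paralog groups were similarly alike (10 to 14 bases).

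Related sequences lay in the coding exons of Hoxd10, Hoxc10 and Hoxa10, and they passed as a match in the first 2. At Hoxd10 the match lay under a site called in 8 lists with a mean percentile of 77.3, and at Hoxc10 under a site called in 7 lists with a mean percentile of 23.4. Counting positions from 1 at the 5′ end of the printed 19 bases, the Hoxc10 match differed from that of Hoxd10 by G2A and T8C, and the Hoxa10 sequence by G14C. The score fell from 12.8 at Hoxd10 and 12.1 at Hoxc10 to 7.74 at Hoxa10, under the threshold of 8.42. The only site in the Hoxa10 coding exon was called in 1 list, and this sequence lay 82 bp from its summit, against 3 bp at Hoxc10 and Hoxd10.

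Of the 46 Hox sites called in every list, 40 had a match (87.0%, 95% Wilson interval 74.3% to 93.9%), beside 91.9% of such sites in the genome. Of the 21 sites inside the clusters that were called in 1 or 2 lists, 6 had one (28.6%, 13.8% to 49.96%), beside 62.4% of the genome's sites called in 1 or 2 lists. The site between Hoxa6 and Hoxa7, with the second highest percentile of Hoxa, had no match. Inside the clusters 15 matches lay on the strand of the Hox genes and 17 on the other. At Hoxb, 8 of the 10 matches inside the cluster at sites called in every list were on the other strand. Of these 8, the match at chr11:96256164-96256182 in the gap scored 8.98, near the threshold of 8.42. Within 50 bp of that summit the best match lay on the strand of the genes. At Hoxc 3 of 3 were on the strand of the genes. With the stricter score that 1% of moved windows passed, 17 of the 53 sites inside the clusters kept a match, 9 of them on the strand of the genes.

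Matches inside the clusters rarely lay in repeats. Only 2 of 32 (6.25%, Wilson interval 1.73% to 20.1%) were masked as repeats in the reference, beside 17 of 34 (34.1% to 65.9%) in the flanks and 42.8% over the genome. The 12 capital bases CCAGAAGAGGGC, the most common stretch among the Hox matches, occurred unchanged at 12 of 34 matches in the flanks and at 2 of 32 inside, beside 27.2% of all matches in the genome, and all 14 Hox copies were in repeats. A site in the Hoxb13-Hoxb9 gap (chr11:96223699-96224171, mean percentile 81.9) was the strongest of them inside a cluster.

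The first comparison was whether K20R cells had fewer CTCF peaks in the Hox regions. At day 0 the WT libraries held 77 and 60 Hox peaks and the K20R libraries 56 and 58. At day 4 the WT libraries held 68 and 66 and the K20R libraries 49 and 61. The K20R libraries lay below the WT libraries on both days without overlap. The mean difference was -11.5 peaks at day 0 and -12 at day 4 (exact permutation test, two-sided, p = 0.333 on both days, the smallest that 2 against 2 libraries can give). The lists themselves differed in length, and when every list was limited to its 41360 peaks of highest −log10 p, the libraries held 46 to 52 Hox peaks each, with differences of 0.5 at day 0 and 0 at day 4. In the deposited lists the difference was -3 without WT replicate 1 and -20 without WT replicate 2 at day 0, and -6 without K20R replicate 1 and -18 without K20R replicate 2 at day 4.

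**Figure D2:**
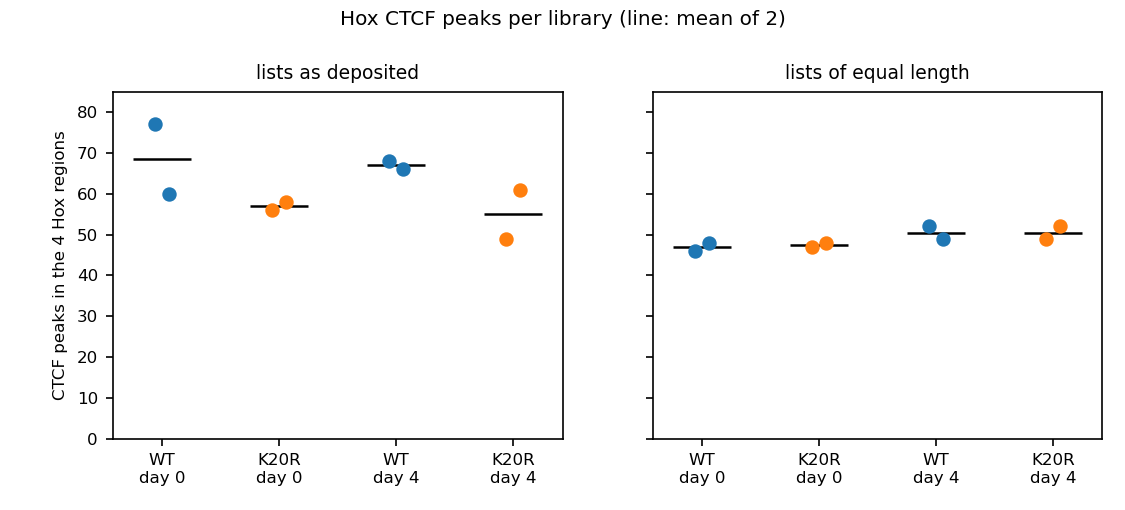
Number of CTCF peaks in the 4 Hox regions (y axis) in each library, by genotype and day, in the lists as deposited (left) and in lists of equal length (right), with lines at the mean of 2 libraries. In the deposited lists WT libraries held 60 to 77 and K20R libraries 49 to 61, and in lists of equal length all 8 held 46 to 52.

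A site was lost in K20R where both WT libraries of a day called it and neither K20R library did, and gained where the reverse held. At day 0, 4 of the 56 Hox sites called in both WT libraries were lost (7.14%), beside 7.69% of such sites over the genome. Of the 51 called in both K20R libraries 0 were gained, which allows a share of up to 7.0% (Wilson), beside 0.426% over the genome. At day 4, 7 of 60 were lost (11.7%, Wilson interval 5.77% to 22.2%), beside 18.8% over the genome, and 0 of 49 were gained (up to 7.27%), beside 0.536%. The losses at day 4 comprised 4 of 13 at Hoxc, 2 of 25 at Hoxb, 1 of 11 at Hoxa and 0 of 11 at Hoxd. The Hox shares were thus near or below those of the genome, with intervals that cover counting error only.

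The lost sites were weak. At day 4, the lost sites had 5 to 21 reads under the summit in the WT libraries, beside a median of 31 and 30.5 reads over all their Hox peaks. The 4 at Hoxc lay in the coding exon of Hoxc13 (chr15:102921689-102921983, 5 and 8 reads), between Hoxc8 and Hoxc6 (chr15:103007311-103007581, 14 and 9 reads), and 43445 and 76168 bp from the start of Hoxc4 (chr15:103077666-103077963 with 17 and 15 reads, and chr15:103110440-103110666 with 13 and 10). The others were a site between Hoxa11 and Hoxa13 (chr6:52255416-52255634, 12 and 8 reads) and 2 sites beyond Hoxb1 (chr11:96399861-96400168 with 21 and 18 reads, and chr11:96454055-96454324 with 14 and 10). The first of the distal Hoxc4 sites was the only one lost on both days, and K20R libraries called it in 0 of 4 lists.

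The other 3 sites lost at day 0 lay beyond Hoxa2 (chr6:52122606-52122976, 31 and 14 reads in WT), beyond Hoxb13 (chr11:96124717-96125007, 17 and 7 reads) and in a UTR of Hoxb8 (chr11:96284379-96284702, 12 and 9 reads). The site beyond Hoxa2 was called again in both K20R libraries at day 4, with 15 and 14 reads. In WT, 3 of 56 sites were lost from day 0 to day 4 (5.36%, beside 5.75% over the genome), all at Hoxb, and 2 of them were the Hoxb losses of K20R at day 0 just given. The other lay beyond Hoxb13 (chr11:96117944-96118374, 14 and 9 reads). In WT, 3 of 60 sites were gained (5.0%, beside 3.81%): the Hoxc13 exon site, the more distant site beyond Hoxc4 and the nearer site beyond Hoxb1. All 3 were also among the 7 that K20R lacked at day 4, and both counts rest on the same WT libraries. In K20R, 1 of 51 sites was lost between days (1.96%, beside 9.10%), a site 50223 bp beyond Hoxb1 (chr11:96415866-96416086, 6 and 9 reads at day 0). Of 49, 1 was gained (2.04%, beside 1.18%), the site beyond Hoxa2 given above. The counts moved with single libraries, and so did the shares over all sites, since fewer lists then had to agree. Without WT replicate 1 and 2 of day 0, losses at day 0 were 8 of 60 and 18 of 77 (13.3% and 23.4%). The genome shares were 9.47% and 29.9%. Without WT replicate 1, WT replicate 2 and K20R replicate 2 of day 4, losses at day 4 were 12 of 66, 14 of 68 and 11 of 60. These were 18.2%, 20.6% and 18.3%, beside 24.8%, 24.4% and 28.3% over the genome. In the same way, sites lost in WT between days numbered 6 of 60 and 13 of 77 without WT replicate 1 and 2 of day 0. These were 10.0% and 16.9%, beside 7.32% and 22.6% over the genome. Sites gained in WT numbered 6 of 60 without WT replicate 1 of day 0 (10.0%, beside 17.2%). They numbered 6 of 66 and 6 of 68 without WT replicate 1 and 2 of day 4 (9.09% and 8.82%, beside 6.81% and 6.64%). Gains in K20R at day 0 numbered 2 of 51 without WT replicate 1 (3.92%, beside 7.29% over the genome). Without K20R replicate 1 and 2 they were 2 of 58 and 2 of 56 (3.45% and 3.57%, beside 1.79% and 1.84%). At day 4 without K20R replicate 1 they were 5 of 60 (8.33%, beside 4.06%).

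The second comparison was of the fold enrichment of CTCF at the 46 Hox sites called in all 8 lists, the only ones with a value in every library. The other 51 sites had no value in at least 1 list and were left out. The Hox sites that were higher in K20R at day 4 by both measures below included Hoxa7-Hoxa9, Hoxc6-Hoxc5, Hoxa5-Hoxa6, Hoxd9-Hoxd8 and Hoxd8-Hoxd4, and the site at the start of Hoxd10 was lower. Not all of these calls held on the other scales given below. Values are fold enrichment divided by the library's median over all 36440 such sites, and differences are on the log2 scale from limma, with p-values adjusted over all 36440 sites (Benjamini-Hochberg).

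Fold enrichment is the reads at the summit plus 1, divided by the local background plus 1, and this background is the number of reads that MACS2 assumed there without binding. Relative to the library median, the background differed by less than 10% between the 2 libraries of a group at 78.0% to 85.6% of sites, but between libraries of different groups at 25% to 30.2%. At the 46 Hox sites these counts were 31 to 40 within groups and 6 to 17 between them. The spread between replicates therefore holds little of the error of the background, and a fold enrichment that differs between groups can differ in its denominator alone. Every comparison was for this reason repeated on the reads at the summit without the background, on the log2(reads + 1) scale centred in the same way. The library medians were 32 to 56 reads.

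Between genotypes at day 4, 17 of the 46 Hox sites passed on fold enrichment (adjusted p under 0.05), beside 32.1% of all sites tested. Of these 15 were higher in K20R, beside 17.8% of all sites, and 2 lower, beside 14.3%. On reads 13 passed, beside 21.5% of all sites, with 12 higher (beside 11.3%) and 1 lower (beside 10.1%). By both measures 11 passed, 10 of them higher. The share of all sites that pass both was not computed, here or in the comparisons below. Both measures hold the same reads, so such counts cannot be set against the genome. The median change in fold enrichment was 0.30 at the 46 and 0.03 over all sites, and in reads it was 0.35 and 0.08. In the 5 Mb around each cluster the median change in fold enrichment was 0.04 to 0.06, so the neighbourhoods lay close to the genome.

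The fold enrichment of the K20R libraries was spread more widely than that of WT (SD of log2 values 0.94 to 1.07 against 0.62 to 0.75 over all sites), which places strong sites higher and weak sites lower after centring. With the libraries quantile normalised to one spread, 17 Hox sites passed at day 4, 12 higher and 5 lower, beside 4081 higher and 3848 lower of all 36440 sites. On the percentile scale 4 were higher and 5 lower, beside 1520 higher and 7185 lower of all sites. Without WT replicate 1, WT replicate 2 or K20R replicate 2 of day 4, the count in fold enrichment fell, as did that over all sites. The median change was then 0.34, 0.24 and 0.22 at the Hox sites, beside 0.03, 0.03 and 0.04 over all sites. Calls at 3 sites held under all 14 alternatives, the reads among them.

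The first of these was the site between Hoxa7 and Hoxa9. At day 4 its relative enrichment was 1.11 and 1.22 in the WT libraries and 2.82 and 3.61 in the K20R libraries, so the genotypes did not overlap. K20R was higher by 1.46 (SE 0.21, adjusted p = 9.47e-05, limma). The reads were 52 and 69 in WT and 84 and 166 in K20R, a difference of 0.86 (SE 0.21, adjusted p = 0.0110, limma), while the background was 1.46 and 1.95 in WT and 0.767 and 0.728 in K20R. At day 0 the relative enrichment was 1.42 and 2.06 in WT and 2.91 and 2.50 in K20R, a difference of 0.66 (SE 0.21, adjusted p = 0.0246, limma) that was 0.26 in reads and did not pass there. Hoxa7 and Hoxa9 are patterning genes of the trunk, and the latter is known as a driver of leukaemia.

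The second was the site between Hoxc6 and Hoxc5, at the start of Hoxc5, with 0.616 and 0.448 in WT and 2.37 and 1.54 in K20R at day 4. It had the largest difference in fold enrichment between genotypes, 1.86 (SE 0.28, adjusted p = 0.000116, limma). The reads were 46 and 29 in WT and 70 in both K20R libraries, a difference of 0.81 (SE 0.27, adjusted p = 0.0383, limma). The background was 2.92 and 2.43 in WT and 0.757 and 0.717 in K20R, and on the log2(background + 1) scale the difference between genotypes was -1.07.

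The third was the site at the start of Hoxd10 (chr2:74691478-74691914), which had 0.932 and 0.957 in WT and 0.399 and 0.319 in K20R. It fell by 1.41 on the log2 scale (SE 0.29, adjusted p = 0.0014, limma), the largest decrease among the Hox sites at day 4. The reads were 31 and 32 in WT and 15 and 24 in K20R, a fall by 0.81 (SE 0.27, adjusted p = 0.0383, limma), and the background was 0.765 and 0.767 against 1.35 and 1.93. This site had no motif match.

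**Figure D3:**
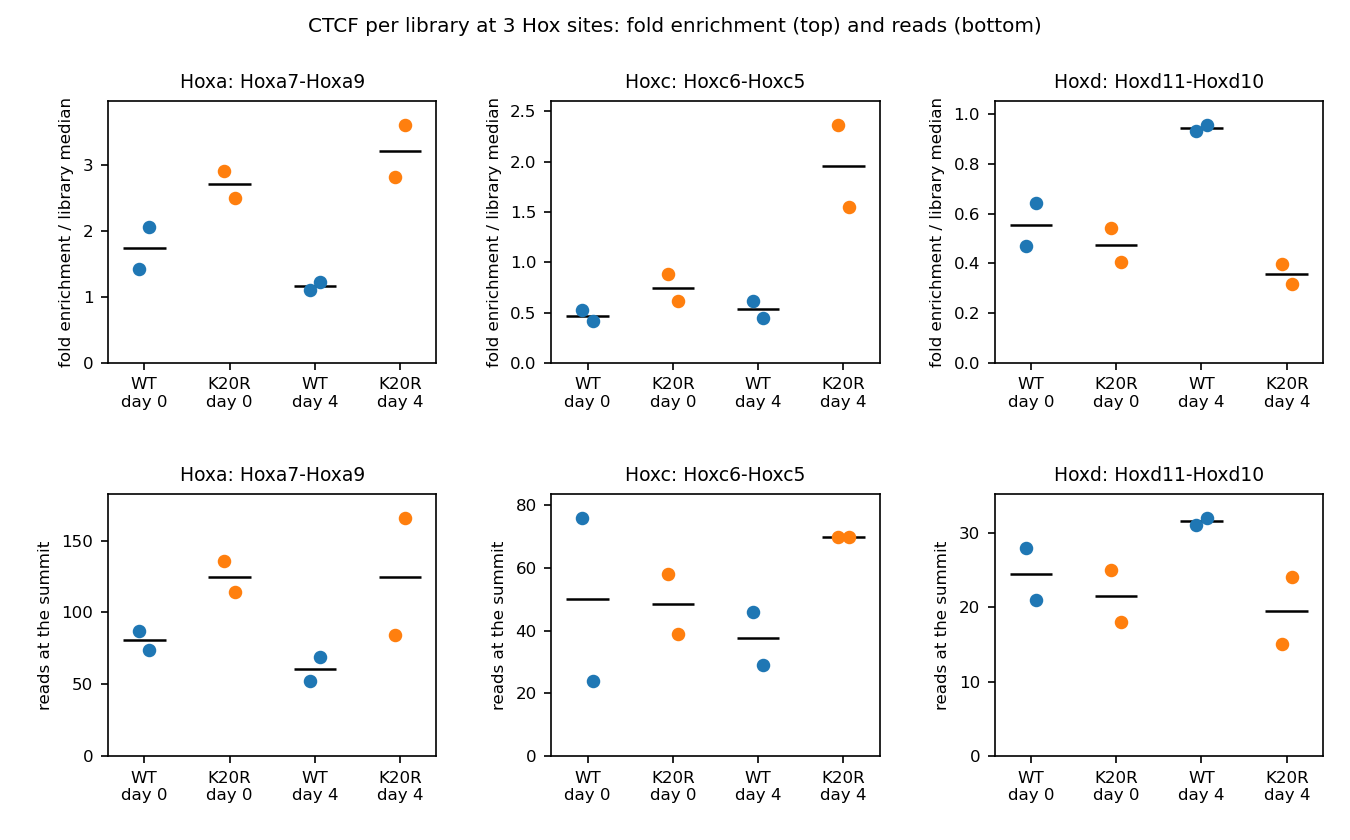
CTCF fold enrichment divided by the library median (y axis, top) and reads at the summit (y axis, bottom) in each of the 8 libraries at the 3 Hox sites whose genotype difference at day 4 passed under all 14 alternatives, with lines at the mean of 2 libraries. At day 4 K20R lay above WT at the Hoxa7-Hoxa9 and Hoxc6-Hoxc5 sites and below it at the Hoxd10 start (Hoxd11-Hoxd10) in both measures, with wider gaps in fold enrichment than in reads.

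The sites at the starts of the other group 5 genes were also higher in fold enrichment. Between Hoxa5 and Hoxa6 the WT libraries had 1.60 and 1.2 and the K20R libraries 2.47 and 3.04, a difference of 0.99 (SE 0.21, adjusted p = 0.00177, limma). The reads there were 63 and 68 in WT and 82 and 159 in K20R, a difference of 0.69 that passed (adjusted p = 0.0279, limma), and the call was lost on the percentile scale alone (adjusted p = 0.0780, limma, with a range of 0.000433 to 0.0780 over the alternatives). Between Hoxb6 and Hoxb5 the values were 1.60 and 1.42 against 2.68 and 3.04, a difference of 0.92 (SE 0.20, adjusted p = 0.00189, limma). Its reads were 74 and 68 in WT and 89 and 159 in K20R, and their difference of 0.63 missed the threshold (adjusted p = 0.0531, limma).

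Of the other sites near the group 10 starts neither passed. Between Hoxa10 and Hoxa11 the values at day 4 were 1.99 and 2.19 in WT and 2.30 and 3.32 in K20R, and between Hoxc11 and Hoxc10 they were 2.17 and 2.29 against 2.15 and 2.19.

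At Hoxb, the increases that passed by both measures were at the strongest site inside, near Hoxb9 (0.66 in fold enrichment and 0.77 in reads), between Hoxb7 and Hoxb6 (0.54 and 0.58) and at 2 sites of the flanks (0.91 and 0.62 beyond Hoxb13, 0.63 and 0.99 beyond Hoxb1). At Hoxd they were at the sites between Hoxd9 and Hoxd8 (0.75 and 0.53), between Hoxd8 and Hoxd4 (0.69 and 0.70) and in the UTR of Evx2 (0.94 and 0.98). Under quantile normalisation the call near Hoxb9 missed the threshold (0.19, adjusted p = 0.418, limma). So did those at Hoxb7-Hoxb6 (0.43, adjusted p = 0.114, limma) and Hoxd8-Hoxd4 (0.27, adjusted p = 0.229, limma). On the percentile scale all of these Hoxb and Hoxd calls missed the threshold. On reads alone, the Hoxc9-Hoxc8 site (0.83) and a gap site of Hoxb at chr11:96239995-96240567 (0.48) passed as well.

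Besides Hoxb6-Hoxb5, 5 calls on fold enrichment did not pass on reads. The Hoxb13-Hoxb9 site at chr11:96234731-96235440 had 1.2 and 1.46 in WT and 2.90 and 3.48 in K20R, a difference of 1.26 (SE 0.21, adjusted p = 0.000322, limma). Its reads, 68 and 83 against 86 and 159, differed by 0.53 (adjusted p = 0.0765, limma), while its background was 1.95 in both WT libraries and 0.757 and 0.717 in K20R. The site 4576 bp from Hoxd13 (chr2:74663317-74663903) fell by 1.12 in fold enrichment (SE 0.25, adjusted p = 0.00278, limma), but its reads overlapped, with 33 and 34 in WT and 15 and 43 in K20R (a fall by 0.48, adjusted p = 0.184, limma). The others were the Hoxb repeat site (0.47 in fold enrichment and 0.32 in reads), a flank site beyond Hoxa13 (0.89 and 0.42) and a site 58275 bp beyond Hoxc4 (0.74 and -0.22). The Hoxb repeat site kept its direction under quantile normalisation but not on the percentile scale, where it was lower in K20R by 0.465 percentile points.

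At day 0, 12 of the 46 Hox sites differed between genotypes in fold enrichment, beside 28.6% of all sites tested. Of these 9 were higher in K20R, beside 14.9%, and 3 lower, beside 13.7%. On reads 3 passed, beside 5.88% of all sites, and by both measures 2. The median change in fold enrichment was 0.14 at the Hox sites and -0.03 over all. Quantile normalisation left 6 higher and 4 lower, beside 4664 and 4032 of all 36440 sites. The percentile scale left 0 higher and 4 lower, beside 1835 and 3323 of all sites. Without WT replicate 1, K20R replicate 1 or K20R replicate 2 of day 0 the count in fold enrichment fell, as did that over all sites. The median change was then 0.03, 0.20 and 0.16 at the Hox sites, beside -0.04, -0.02 and -0.02 over all sites. No single call held under all alternatives.

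The call with the widest support at day 0 was the site between Hoxc9 and Hoxc8, lost on the percentile scale alone. It had 0.922 and 0.685 in WT and 1.45 and 1.68 in K20R, a difference of 0.98 (SE 0.20, adjusted p = 0.00161, limma). The reads were 56 and 30 in WT and 77 and 87 in K20R, a difference of 0.61 (SE 0.18, adjusted p = 0.0443, limma). The other call by both measures was a site 6321 bp from Hoxd13, which fell by 0.98 in fold enrichment and by 0.96 in reads (adjusted p = 0.0410, limma). This site missed the threshold under quantile normalisation (-0.53, adjusted p = 0.163, limma) and on the percentile scale (adjusted p = 0.159, limma). Its reads were 33 and 16 in WT and 14 and 16 in K20R, values that touch before they are set against library medians of 56 and 32 in WT and 56 and 54 in K20R. The third read call was a site 96545 bp from Hoxc4 (0.72), whose fold enrichment missed the threshold.

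The largest difference in fold enrichment at day 0 was at the site between Hoxa6 and Hoxa7, with 1.17 and 2.1 in WT and 3.46 in both K20R libraries (1.14, SE 0.24, adjusted p = 0.00186, limma). Its reads differed by 0.50 (adjusted p = 0.217, limma), and its background was 2.15 and 2.1 in WT and 0.882 and 0.885 in K20R. The other increases in fold enrichment that did not pass on reads were at Hoxd9-Hoxd8 (0.81), Hoxa10-Hoxa11 (0.76), Hoxa7-Hoxa9 (0.66), Hoxb9-Hoxb8 (0.80), Hoxb7-Hoxb6 (0.48), a flank site beyond Hoxb13 (0.49) and the Hoxd11-Hoxd10 site nearer to Hoxd11 (0.64). The decreases were at a site 78809 bp from Hoxc4 (a fall by 1.04) and at the Hoxb repeat site (a fall by 0.50), where the difference in reads was 0.09 in the other direction.

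**Figure D4:**
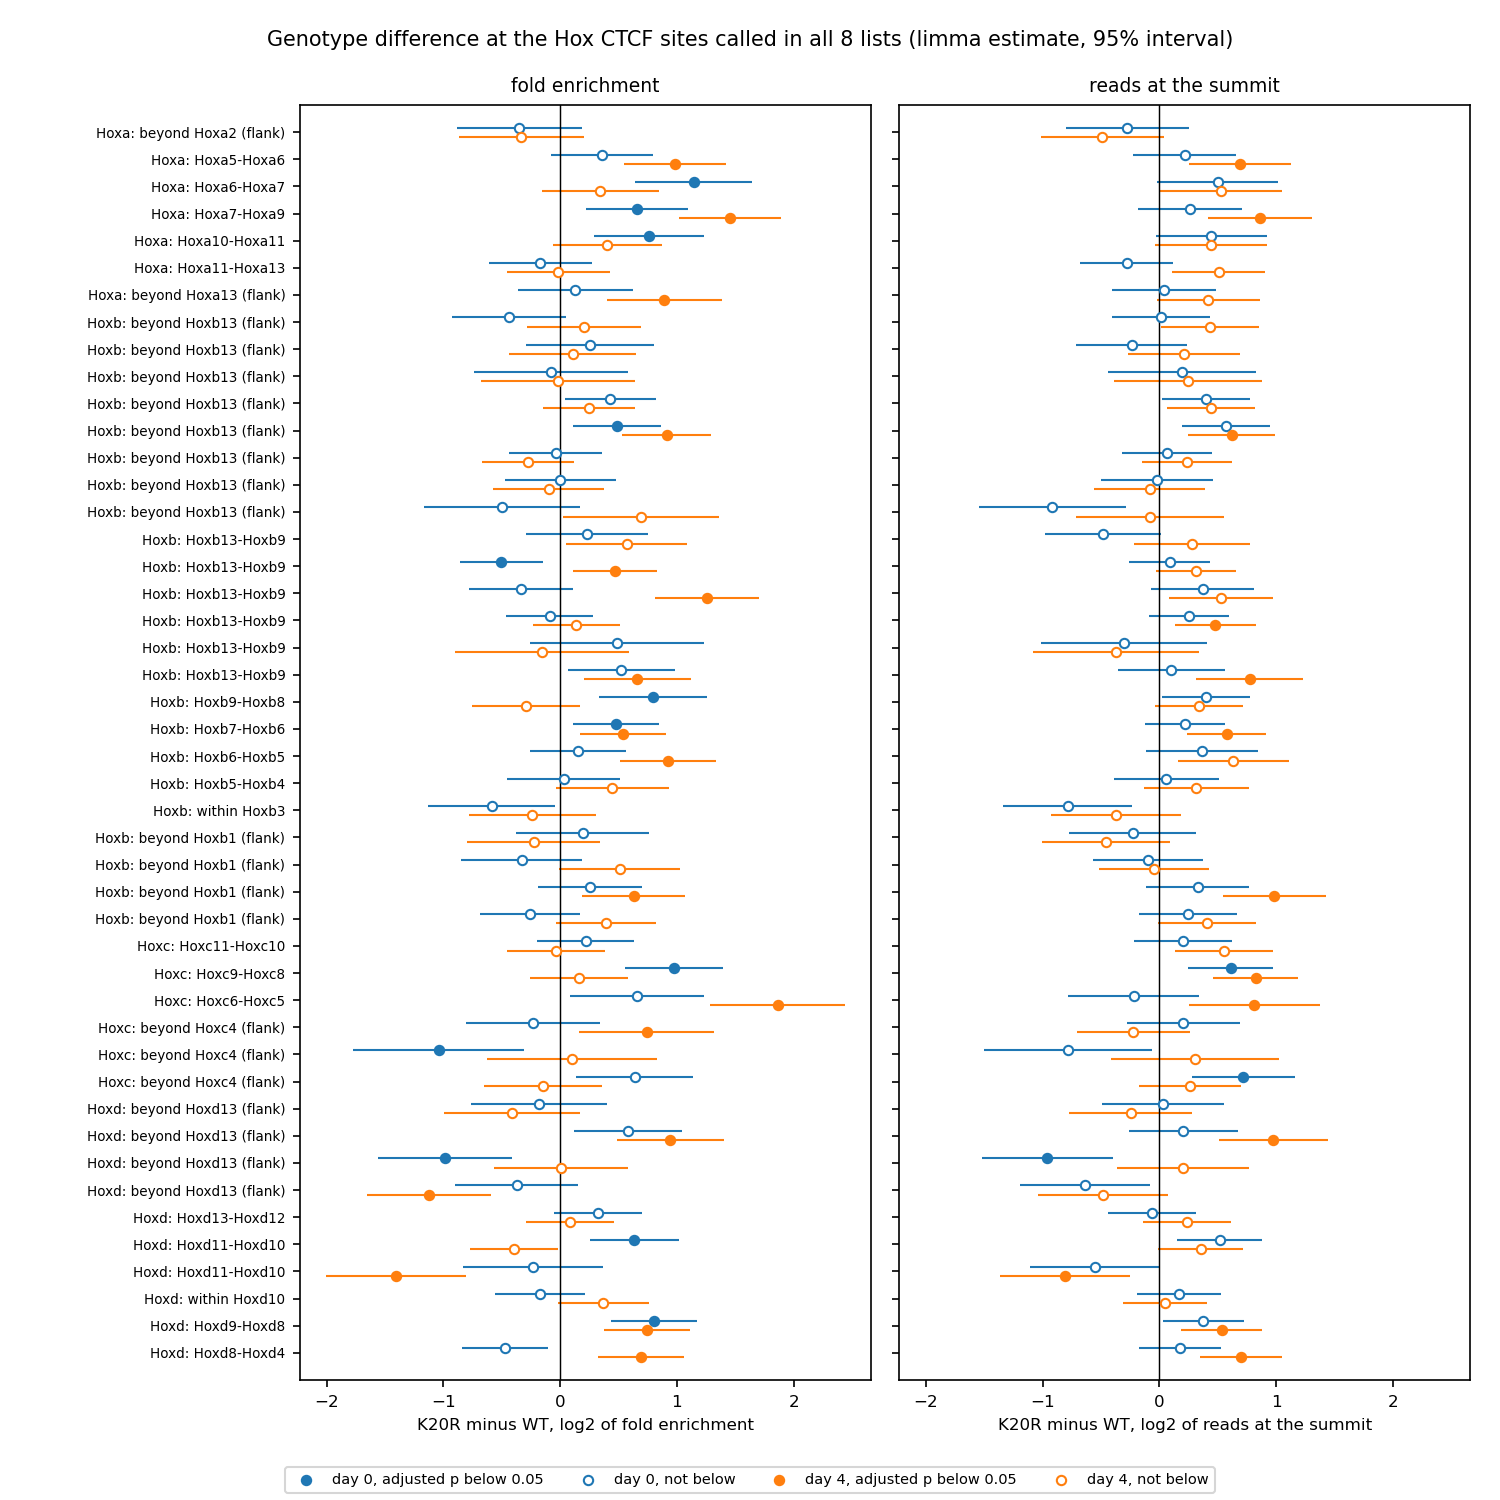
Difference between K20R and WT (x axes, limma estimate with 95% interval) in log2 fold enrichment (left) and log2 reads at the summit (right) at the 46 Hox sites called in all 8 lists, in genome order (y axis), at day 0 (blue) and day 4 (orange), with filled points where the adjusted p was under 0.05. At day 4, 17 sites passed in fold enrichment and 13 in reads, and at day 0 these numbers were 12 and 3.

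The third comparison was between days. In WT, 10 of the 46 sites differed between day 4 and day 0 in fold enrichment, beside 24.8% of all sites, with 5 higher (beside 12.0%) and 5 lower (beside 12.8%). On reads 4 passed, beside 3.63% of all sites, and by both measures 3, all at Hoxb. Between Hoxb9 and Hoxb8 the WT libraries rose from 0.698 and 0.474 to 1.42 and 1.21 (difference 1.19, SE 0.22, adjusted p = 0.000993, limma), and by 0.65 in reads (adjusted p = 0.0482, limma), from 59 and 24 to 56 and 57. A site 59626 bp beyond Hoxb1 (chr11:96425098-96425660) fell by 1.1 in fold enrichment and by 1.01 in reads (adjusted p = 0.0123, limma), from 51 and 45 reads to 24 and 20. These 2 calls held under all 13 alternatives. The exon site of Hoxb3 rose by 0.89 in fold enrichment and 1.02 in reads, from 24 and 20 reads to 44 and 42.

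The other WT calls did not pass on reads. The largest was a fall by 1.31 at a site 46387 bp beyond Hoxb1 (chr11:96411764-96412295, SE 0.25, adjusted p = 0.00116, limma), from 1.78 and 1.45 to 0.731 and 0.574, which was a fall by 0.64 in reads (adjusted p = 0.120, limma). At Hoxc the 2 calls were the Hoxc9-Hoxc8 site, which was higher by 0.78 in fold enrichment and 0.33 in reads, and a site 58275 bp beyond Hoxc4, lower by 1.11 in fold enrichment with a difference of 0.13 in reads the other way. At Hoxd the only call was 0.77 at a site 32700 bp from Hoxd13 (0.25 in reads), and no Hoxa site passed. On the percentile scale 3 were higher and 5 lower, beside 3012 and 3628 of all 36440 sites. The count in fold enrichment fell without either WT replicate of day 4, as did that over all sites.

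In K20R, 15 of the 46 differed between days in fold enrichment, beside 20.2% of all sites, with 11 higher (beside 10.9%) and 4 lower (beside 9.31%). On reads 2 passed, beside 4.37% of all sites, and both passed on fold enrichment too. The exon site of Hoxb3 rose by 1.24 in fold enrichment and 1.44 in reads (adjusted p = 0.0064, limma), from 20 and 13 reads to 28 and 45. The site 6321 bp from Hoxd13 rose by 1.19 in fold enrichment and 1.2 in reads (adjusted p = 0.0176, limma). Its reads went from 14 and 16 to 21 and 37, and its genotype call at day 0 rests on the same K20R libraries of day 0. On the percentile scale this rise missed the threshold (adjusted p = 0.216, limma). The exon site of Hoxb3 thus rose in both genotypes, which share no library in these comparisons, although the spread was estimated over all 4 groups together. Its WT call held under 8 of the 13 alternatives and its K20R call under 11. On the percentile scale both missed the threshold (adjusted p = 0.0552 and 0.134, limma).

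The 2 largest differences in fold enrichment between days in K20R did not pass on reads. At the Hoxb repeat site the values were 0.922 and 0.897 and then 2.47 and 2.28 (1.38, SE 0.17, adjusted p = 8.98e-05, limma). Its reads were 97 and 92 at day 0 and 73 and 104 at day 4, which overlap, with a difference of 0.23 (adjusted p = 0.459, limma), while its background went from 2.89 in both libraries to 0.757 and 0.717. At the Hoxc6-Hoxc5 site the values were 0.883 and 0.614 and then 2.37 and 1.54 (1.38, SE 0.28, adjusted p = 0.00199, limma), with a difference of 0.89 in reads (adjusted p = 0.0646, limma). The Hoxd8-Hoxd4 site differed by 1.21 in fold enrichment and 0.47 in reads, the Hoxa5-Hoxa6 site, the only Hoxa call, by 0.76 and 0.20, and a site 96545 bp from Hoxc4 by -0.84 and -0.04. At the flank site 67187 bp beyond Hoxb13 fold enrichment was higher at day 4 in both genotypes, by 1.1 in WT and 0.92 in K20R, and reads by 0.21 and 0.24. Under quantile normalisation 8 K20R sites were higher and 1 lower, beside 1990 and 1970 of all 36440 sites. On the percentile scale 5 were higher and 3 lower, beside 1016 and 2823 of all sites. The count in fold enrichment fell without either K20R replicate of day 0, as did that over all sites.

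The difference between genotypes itself differed between days at 6 of the 46 sites in fold enrichment, beside 12.9% of all sites, with 4 more positive at day 4 (beside 7.07%) and 2 less positive (beside 5.79%). On reads no Hox site and 0% of all sites passed (limma). An unadjusted p under 0.05 was found at 9 Hox sites, all more positive at day 4. Of all 36440 sites, 1349 more positive and 1008 less positive had one. At the Hoxb13-Hoxb9 site at chr11:96234731-96235440, K20R minus WT was -0.33 at day 0 and 1.26 at day 4, a difference of 1.60 (SE 0.30, adjusted p = 0.00246, limma). In reads this difference was 0.16 (adjusted p = 0.953, limma). The background there was 0.738 and 0.746 in WT and 1.93 and 1.44 in K20R at day 0, and 1.95 in both WT libraries and 0.757 and 0.717 in K20R at day 4, so its order turned round between days. At the Hoxd8-Hoxd4 site the genotype difference moved by 1.17 in fold enrichment (SE 0.25, adjusted p = 0.005, limma) and by 0.52 in reads (adjusted p = 0.768, limma). Quantile normalisation gave 5 in each direction, beside 2923 more and 3173 less positive of all 36440 sites. The percentile scale gave 4 more and 1 less positive, beside 1167 and 2124 of all sites. Without K20R replicate 2 of day 0 or WT replicate 1 of day 4 the count in fold enrichment fell. Without WT replicate 1 of day 0 it rose, and the counts over all sites moved the same way. The median change was then 0.11, 0.22 and 0.16 at the Hox sites, beside 0.04, 0.03 and 0.06 over all sites.

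The last comparison was of H3K27ac at day 4, with 1 library per genotype and therefore no test. Both lists had almost no H3K27ac peak inside the Hox clusters. In WT 2 peaks covering 607 bp lay inside, a peak of 233 bp in Hoxb3 (chr11:96341783-96342015) and one of 374 bp next to Hoxb2 (chr11:96354481-96354854). In K20R 1 peak of 321 bp lay inside, 12 bp from the start of Hoxc13 (chr15:102921115-102921435). These peaks were weak, at 2.96-, 3.32- and 3.57-fold enrichment. Inside the 4 clusters 0.125% of the length was covered in WT and 0.0662% in K20R, beside 2.04% and 2.43% of the genome.

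Taking each gene with 2 kb on both sides, 36 of the 38 listed genes had no H3K27ac in WT and 37 had none in K20R. Over all 55450 annotated genes 32.7% had some in WT and 34.8% in K20R. A gene differed where one genotype covered at least 2 times the length of the other and 500 bp more. By this rule 0 of 38 Hox genes differed, beside 10.3% of all genes. None of the 38 could, since the longest covered length was 374 bp (Hoxb2, in WT), under the 500 bp required. Over all genes, 37.3% had some H3K27ac in at least 1 genotype.

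The flanks held most of the covered length. With flanks, the peaks covered 6503 bp in WT and 11308 bp in K20R: 3388 and 5510 bp at Hoxa, 1585 and 2376 bp at Hoxb, 0 and 321 bp at Hoxc, and 1530 and 3101 bp at Hoxd. The widest peak of each region in WT was 1313 bp at Hoxa, 978 bp at Hoxb and 851 bp at Hoxd, and in K20R 3224 bp at Hoxa, 1137 bp at Hoxb, 321 bp at Hoxc and 1259 bp at Hoxd. The 3224 bp peak, 55551 bp from Hoxa2 (chr6:52103643-52106866), overlapped a WT peak of 705 bp. The strongest 2 peaks lay at Hoxd, 60479 bp beyond Hoxd1 (chr2:74825621-74826299, 11.1-fold in WT and 7.05-fold in K20R) and 89055 bp from Hoxd13 (chr2:74578405-74579255, 7.44-fold and 5.64-fold). K20R peaks were thus wider and less enriched at these 2 places. The larger covered length in K20R turned round with peaks of −log10 q of at least 5 alone, where K20R covered less than WT (3677 against 3994 bp). The K20R list was also the longer one, with 45318 peaks against 38982. With both lists limited to 38982 peaks, K20R covered 10739 bp and WT 6503 bp.

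**Figure D5:**
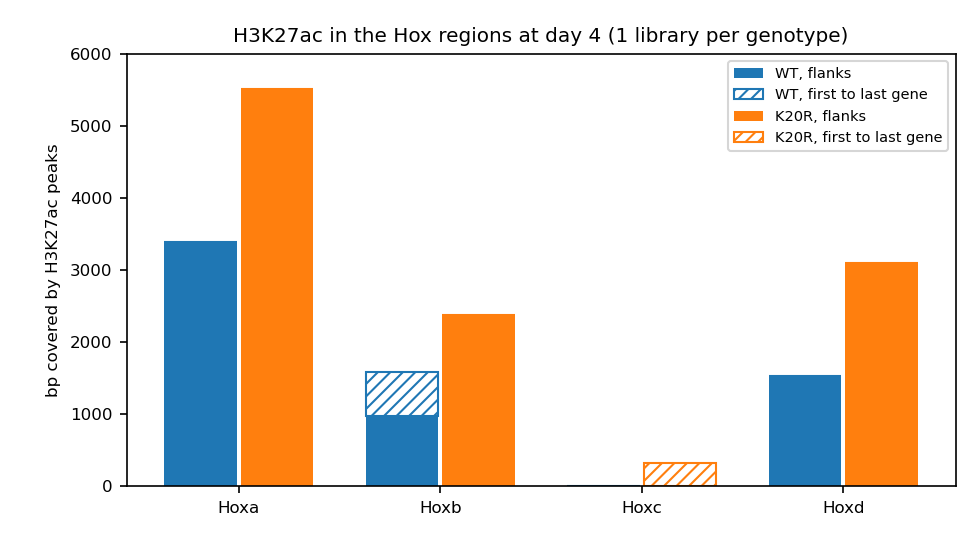
Length in bp covered by H3K27ac peaks (y axis) in the 4 Hox regions at day 4, in WT (blue) and K20R (orange), with solid bars for the flanks and hatched bars for the part between the first and last listed gene. Nearly all covered length was in the flanks, and inside the clusters there were 607 bp in WT and 321 bp in K20R.

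Genes that act with or on Hox genes were read in the same way, within 3 kb of a start site. H3K27ac was present at 7 of 8 cofactor genes (Meis, Pbx and Pknox1, whose products bind DNA together with Hox proteins) in WT and 6 in K20R. It was present at 11 of 11 Polycomb genes in WT and 10 in K20R, and at 7 of 7 trithorax genes, whose products oppose Polycomb, in both. Of the genes of the retinoic acid pathway, a signal that induces Hox genes, 2 of 7 had H3K27ac in both genotypes (Rara and Rarg). The neighbours Evx1 and Evx2 and the regulators Cdx2 and Cdx4 had none. By the same window 2 of 38 Hox genes had it in WT and 1 in K20R. CTCF sites called in every list lay within 3 kb of the starts of 12 of 38 Hox genes. The same held for 3 of 11 Polycomb, 2 of 7 trithorax, 3 of 7 retinoic acid and 1 of 8 cofactor genes. The shares of all genes within this window were not computed for either mark. Genes differ in their number of start sites, and a site can count for neighbouring Hox genes at once. These counts therefore do not compare the lists.

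Markers of the stage of the embryoid bodies differed between the H3K27ac lists, and their part in the Hox values was not tested. The pluripotency genes Pou5f1, Sox2, Nanog and Zfp42 all carried H3K27ac in both, with 6001, 5329, 5191 and 310 bp in WT and 5178, 5406, 1982 and 3146 bp in K20R. Of the streak and mesoderm genes, T had 471 bp and Eomes 1120 bp in WT and neither had any in K20R, and Mixl1 and Mesp1 had none in either. The endoderm genes Sox17 and Foxa2 had none in either.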

How the data were processed

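The series holds 14 samples, of which 8 CTCF and 2 H3K27ac libraries have a peak list and 4 inputs do not, so the inputs were not analysed here. Trimming (Trim Galore) and alignment to mm10 (Bowtie2) were done by the authors, who discarded duplicates, poorly mapped reads and blacklisted regions and thinned the CTCF libraries to the same number of reads. MACS2 then gave 1 list per library, of narrow peaks for CTCF and broad peaks for H3K27ac, and the control is not given in the sources used here. The deposited columns used here are the fold enrichment (a ratio to local background), the −log10 p-value and −log10 q-value and the summit position. The deposited score was not used. The lists hold no read counts over whole sites, so the authors' kind of test was not run.

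CTCF peaks of the 8 lists that shared 1 bp or more were merged into sites and placed between genes by the coding spans of the GENCODE M21 basic annotation. Coordinates are 1-based on mm10, which is the build of the GRCm38 reference. Differences were tested with limma 3.58.1 (trend, 4 groups, no block) on log2 fold enrichment centred on each library's median over the 36440 sites called in all lists, because the values are ratios. Same-numbered libraries did not deviate together in every pair (correlations of -0.034 to 0.322), so the numbers were not taken as pairs. On simulated data for the day 4 comparison over 36440 sites, 28% of sites changed by 1 on the log2 scale and 83% of those changed by 2 were recovered. The simulation changed far fewer sites than were called here and held no background error shared within groups, so these rates need not carry over. Reads and local background under a summit were solved from the deposited fold enrichment and −log10 p (whole reads within 0.01 of the deposited −log10 p), and limma was repeated on log2(reads + 1), an alternative chosen after seeing the data, because the background was nearly the same within groups.

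The members and gene lists were chosen with earlier results of these data known. Named were the 3 strongest sites per cluster, every lost or gained site, sites passing a genotype or interaction test (all of them with their change, up to 5 per cluster in full), the 2 largest changes between days per cluster and genotype, and the widest H3K27ac peaks. The alternatives tried were stricter peaks (−log10 q from 5 upwards), equal list lengths, no flanks, windows reaching 100 bp either side of the summit, other scales and centrings, a replicate block, and each library left out. Python 3.11.15, pandas 2.3.3, pysam 0.24.0, scipy 1.17.1 and R 4.3.3 were used.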

Additional observations from a re-analysis of the deposited data

Results flagged for a closer look

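At 6 Hox sites the difference between K20R and WT itself differed between day 4 and day 0 (limma, interaction of genotype and day, adjusted p under 0.05 over all sites tested), beside 12.9% of all sites. These are differences in fold enrichment, and on the reads at the summit 0 of the 6 passed (limma). The change of the difference on the log2 scale was 1.60 at the Hoxb13-Hoxb9 site at chr11:96234731-96235440, 1.17 at the Hoxd8-Hoxd4 site, 0.97 at the Hoxb repeat site and 1.21 at the Hoxc6-Hoxc5 site. It was -1.09 at the Hoxb9-Hoxb8 site and -1.03 at the Hoxd11-Hoxd10 site nearer to Hoxd11. In reads the corresponding values were 0.16, 0.52, 0.23, 1.04, -0.06 and -0.16, and in local background, which divides the fold enrichment, they were -1.37, -0.58, -0.68, -0.11, 1.09 and 0.94. Under the 13 alternatives, the first 2 passed in 12, the Hoxd11-Hoxd10 site in 10, the Hoxb repeat site in 7, the Hoxb9-Hoxb8 site in 5 and the Hoxc6-Hoxc5 site in 4. At the Hoxb9-Hoxb8 site WT rose from 0.698 and 0.474 to 1.42 and 1.21 times the library median while K20R had 0.973 and 1.03 at day 0 and 1.11 and 1.03 at day 4.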

How the results depend on the processing

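Limiting all lists to equal length changed the difference in Hox peak number to 0.5 at day 0 and 0 at day 4. In order of the 6 call patterns (lost and gained at day 0, lost and gained at day 4, lost and gained with differentiation in WT), the main counts were 4, 0, 7, 0, 3 and 3. With −log10 q of at least 5 the lost counts were 1, 4 and 0, and with equal lengths losses were 1, 2 and 0 and gains in K20R 1 and 1. Without flanks, by construction, they were 1 lost at day 0, 3 at day 4 and 1 lost and 1 gained in WT. With windows reaching 100 bp either side of the summits 1 site was gained at day 4. Leaving out 1 library gave 5 to 18, 0 to 2, 7 to 14, 0 to 5, 3 to 13 and 4 to 6. For the limma counts (12, 17, 10, 15 and 6 sites for the genotypes at day 0 and day 4, the days in WT and K20R, and the interaction), the percentile scale gave 4, 9 and 8 for both genotype contrasts and the days in K20R, and quantile normalisation gave 9 for the days in K20R and 10 for the interaction. With reads at the summit in place of fold enrichment, a setting chosen after seeing the data, the counts were 3, 13, 4, 2 and 0, and the median change between days in WT at the Hox sites against all sites turned from positive to -0.054. Leaving out 1 library gave 4 to 15, 10 to 17, 4 to 12, 3 to 19 and 2 to 10.

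Labels share replicate numbers, but the numbers did not pair the libraries. With a replicate block 16, 17, 12, 18 and 8 Hox sites passed, and the difference in peak number stayed at -11.5 and -12. Of all 36440 sites, 5903, 7089, 4828, 4508 and 3105 were then higher. The lower ones were 5548, 5619, 5169, 3848 and 2555.

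The H3K27ac difference (K20R minus WT, 4805 bp) became -317 bp at −log10 q of at least 5 and -286 bp without flanks, and was 4236 bp with equal list lengths. Matches on the strand of the genes fell from 15 to 9 with the stricter motif score. Of 808 refits of the 60 single-site calls, 582 kept the call, 221 missed the threshold with the same direction and 5 changed direction: the Hoxb repeat site at day 4 on the percentile scale (-0.465 points) and, on reads, the Hoxb repeat site at day 0 (0.088), the site 58275 bp beyond Hoxc4 at day 4 (-0.22) and between days in WT (0.13), and the Hoxb13-Hoxb9 site at chr11:96234731-96235440 between days in WT (0.048). The reads setting leaves out the local background. The cause of the other changes was not tested. Weak sites of few reads limit the call patterns.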
